A study of Drosophila melanogaster with 3 samples.

Results

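The regions described here are CBP peaks that lie over gene starts on a single DNA strand and do not touch any SMARCAD1 peak. They come from ChIP-seq of S2 cells, a cultured line derived from Drosophila melanogaster embryos. A CBP peak was taken when it covered at least 1 annotated gene start, contained no whole gene, and covered starts on the same strand only. It was then selected on the SMARCAD1 data: it had to share no bp with a SMARCAD1 peak. On the 5 long chromosome arms (X, 2L, 2R, 3L, 3R), 504 of 1088 CBP peaks at such starts met this rule, or 46.3% (Wilson 95% interval 43.4% to 49.3%). Over all 3646 CBP peaks on these arms, wherever they lay, 1707 (46.8%) shared no bp with SMARCAD1, which is a share close to that at these starts. These peaks are called CBP-only start peaks below, and the other 584 are called shared start peaks.

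All cells carried the same treatment, a nonspecific double-stranded RNA of EGFP, the control of the study's knockdown experiments, given for 6 h at 26 °C and followed by 72 h in medium with serum. Chromatin was immunoprecipitated with custom-made anti-CBP or anti-SMARCAD1 (ASNA) antibodies, with 1 library per antibody. Input DNA was sequenced too, but was not analysed here. Without replicates, neither a test nor a p-value was possible. Intervals reflect counting error alone, taking each peak or gene as independent. The peak tables give positions, widths and distances in bp, without read counts or peak scores, so the depth is unknown and a missing SMARCAD1 peak is not the same as a lack of SMARCAD1. Whether such peaks fell just under the authors' threshold was not tested. Nor was it tested whether CBP peaks taken here lay just above that threshold. Because the absence of SMARCAD1 chose the members, every share without SMARCAD1 below is a description.

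CBP, encoded in Drosophila by nejire, is a histone acetyltransferase that transcription factors bring to enhancers and promoters, where it acetylates histones and acts as a coactivator. SMARCAD1, the fly protein Etl1, is a SNF2-family ATPase that remodels nucleosomes. The study mapped both proteins in S2 cells. A CBP peak that no SMARCAD1 peak meets is thus a place where CBP alone of the pair was called.

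The CBP-only start peaks, which the rule places over the start, reached somewhat further on the upstream side. Their median width was 1416 bp (95% interval 1286 to 1559, quartiles 975 and 2313, n = 504), against 1562 bp (1440 to 1655, quartiles 1036 and 2422, n = 584) in the shared start peaks. Counted in the direction of transcription, they reached a median of 724 bp upstream (681 to 757) and 513 bp downstream (471 to 563) of the start. Shared start peaks also had a median of 724 bp upstream, and 564 bp (517 to 678) downstream. The peak centre lay upstream of the start in 308 members, or 61.1% (56.8% to 65.3%), and in 344 shared start peaks, or 58.9% (54.9% to 62.8%). The median distance from the start to the centre was -71.5 bp (-99 to -46), a negative value being upstream, against -73.5 bp (-109 to -46). The centre lay within 500 bp of the start in 375 members (74.4%) and in 422 shared start peaks (72.3%). Since only peaks covering the start were taken, peak width bounds this distance in both groups, and closeness to the start is not a result. The rule also leaves out peaks containing a whole gene, so the length of the covered gene caps the downstream reach. On the upstream side, starts on the other strand and whole neighbouring genes also exclude peaks. The difference between the sides is thus a description of the selected peaks. All of these intervals overlap between the members and the shared start peaks.

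**Figure D1:**
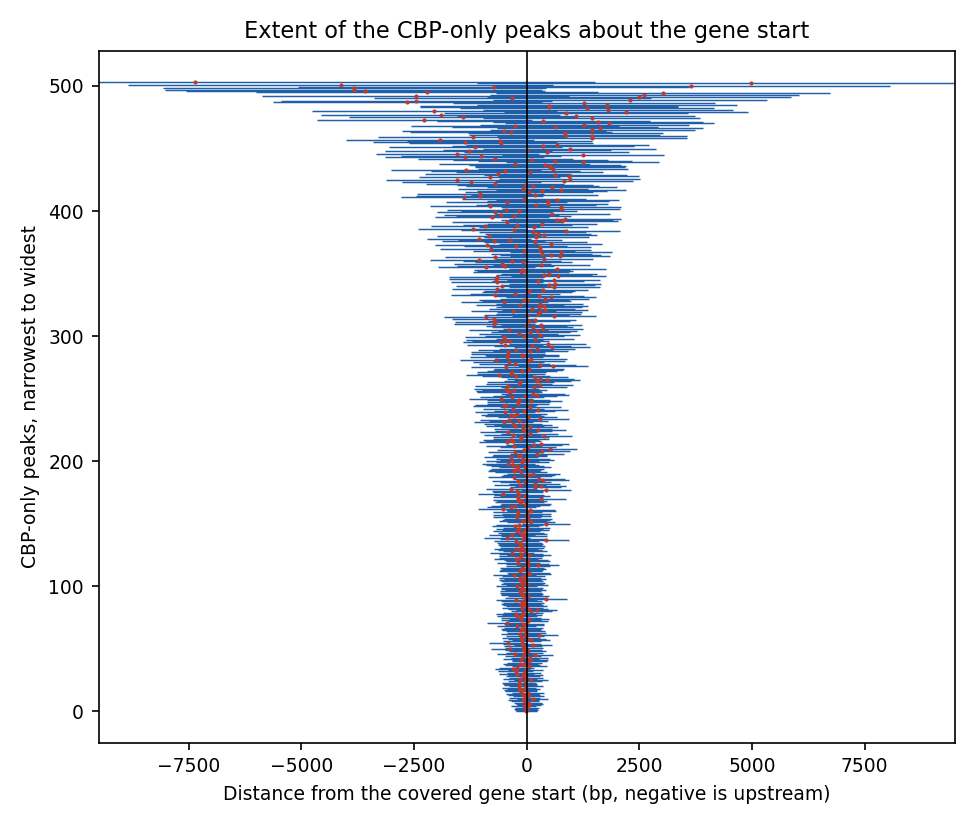
Each horizontal line is 1 of the 504 CBP-only start peaks, ordered from the narrowest at the bottom to the widest at the top, the x axis gives the distance in bp from the covered gene start with upstream to the left, and red points mark peak centres. By the rule every peak covers the start and contains no whole gene, which caps the downstream reach at the gene's length. The median extent is 724 bp upstream and 513 bp downstream, while the widest run far to 1 side. The lines of cbt and Smr continue past the edges of the plot.

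The widest members extended mostly in 1 direction, and the rule let none reach past the end of its own gene downstream. The peak at cbt (cabut, a zinc finger transcription factor gene) was the widest, at 17776 bp on 2L from 478165 to 495940, with 16258 bp upstream of the start and 1517 bp downstream. The peak at Smr, a corepressor gene, was 12171 bp wide on X from 12625418 to 12637588, and 11058 bp of it lay downstream, inside the gene. Med (Medea, the common Smad of the Dpp pathway) had a peak of 9436 bp on 3R from 27427926 to 27437361, with 8844 bp upstream. CG9339, now named sky, a Rab GTPase activating protein gene, had one of 8802 bp on 2L from 20910873 to 20919674, with 8055 bp downstream. CG33936 had one of 8694 bp, split into 5082 bp upstream and 3611 bp downstream.

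The narrowest members, RpS14b apart, sat almost centred on the start. They were at tam (476 bp wide), which encodes the catalytic subunit of the mitochondrial DNA polymerase, disp (509 bp), which is needed for release of Hedgehog, Sac1 (511 bp), a phosphoinositide phosphatase gene, CG7506 (524 bp) and RpS14b (539 bp), a ribosomal protein gene. Their centres were -6, -5, -20, 2 and -71 bp from the start in the same order.

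Nearly all members, 495, covered the start of a single listed gene, and 9 covered the starts of 2 listed genes on the same strand. Among the latter were neighbours with related products. Ant2 and sesB, on X, are the paralogous genes of the mitochondrial ADP/ATP carrier, and their peak was 4546 bp wide. KP78a and KP78b, protein kinase genes on 3R, were listed with the same start under a peak of 1166 bp. The peak of RpS27A on 2L also covered the start of Ip259. The other pairs were Cyp6u1 with CG30157, mip120 with EfTuM, CG10731 with Ext2, MEP-1 with CG42245, DNApol-alpha50 with CG7083, and CG33691 with CG33692. Within 3 of these pairs, CG10731 with Ext2, MEP-1 with CG42245 and CG33691 with CG33692, both genes were listed with the same start. Together the members lay over 513 genes as listed. Some of these are now 1 gene: CG33691 and CG33692 are both CG43736, and CG31630 is milt, itself listed.

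In a compact genome a start peak often reaches the gene before it. Of the members, 253 (50.2%, 45.8% to 54.5%) also covered the end of another gene, and in all 253 at least 1 such end lay on the same strand as the start, in tandem. Only 5 members (0.992%) covered an end on the other strand. The shared start peaks gave 289 of 584 (49.5%), with 287 (49.1%) on the same strand and 5 (0.856%) on the other. The rule largely sets this split in both groups. An upstream neighbour on the other strand turns its start to the peak, and peaks over starts on both strands were left out. A downstream neighbour on the other strand lies past the member's own gene unless the genes overlap, and peaks containing a whole gene were left out. RpL11 is an example, since its peak of 1248 bp also covered the end of Spt5, which encodes a transcription elongation factor. In 42 members (8.33%) and 54 shared start peaks (9.25%) the whole peak lay inside another gene.

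The distance to the nearest SMARCAD1 peak varied widely. Its median was 4791 bp (3860 to 6364, quartiles 1332 and 18194, range 14 to 593462). A SMARCAD1 peak lay within 500 bp of 62 members (12.3%), within 1000 bp of 103 (20.4%), within 5000 bp of 258 (51.2%) and within 20000 bp of 390 (77.4%). It was on the upstream side in 241 of 504 (47.8%, 43.5% to 52.2%), so neither side prevailed. Among the 258 members with a SMARCAD1 peak within 5000 bp, that peak covered a gene start in 145 (56.2%), a gene end but no start in 49 (19.0%), the inside of a gene in 50 (19.4%) and lay between genes in 14 (5.43%). In 106 of the 258 (41.1%, 35.3% to 47.2%) it lay on the member's own gene.

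**Figure D2:**
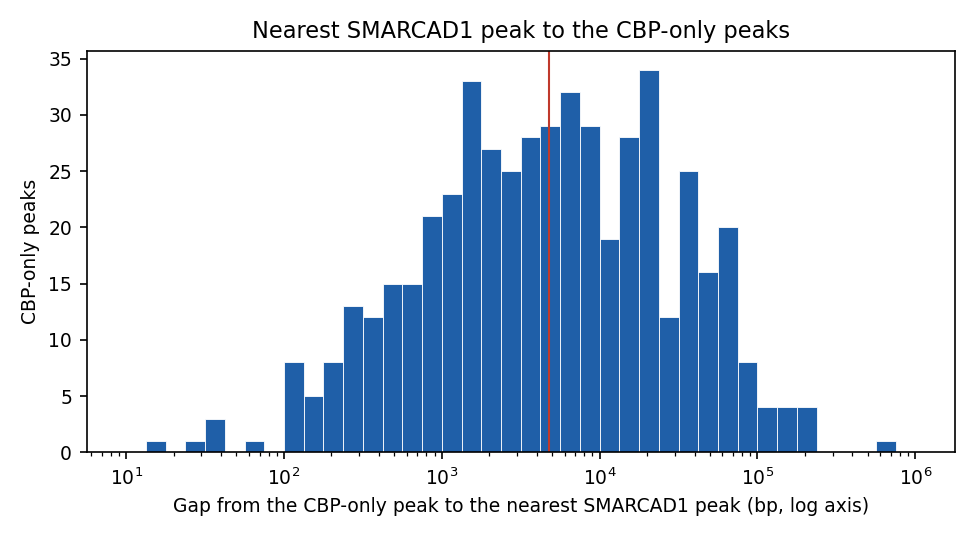
Histogram of the gap between each of the 504 CBP-only start peaks and its nearest SMARCAD1 peak, in bp on a log axis, with the number of peaks on the y axis and a red line at the median of 4791 bp. The gaps run from 14 to 593462 bp without a separate group near 0; 8 members lie within 110 bp of a SMARCAD1 peak.

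At the threshold itself, the members with the smallest gaps were Pros25 on 3R from 8256071 to 8257424 (14 bp), which encodes a proteasome subunit, CG6145 (27 bp) and Smr (34 bp). The shared start peaks with the smallest overlap were those of CG12512 (7 bp shared), pita (26 bp) and Rab8 (41 bp). Such cases were few. Of the 584 shared start peaks, 572 (97.9%) shared at least 50% of their length with SMARCAD1, 413 (70.7%) were covered whole, and 6 (1.03%) shared under 300 bp.

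The share without SMARCAD1 was lower on X than on the autosomal arms. On X, 75 of 223 CBP peaks at starts on a single strand were without SMARCAD1, or 33.6% (27.8% to 40.1%), against 429 of 865, or 49.6% (46.3% to 52.9%), on the autosomal arms. The autosomal arms were close to each other: 54.5% on 2L (90 of 165), 49.8% on 2R (109 of 219), 47.5% on 3L (104 of 219) and 48.1% on 3R (126 of 262). The interval of X lay below that of the autosomal arms together, and it still did so among peaks of at most 2000 bp, where X gave 36.1% (29.2% to 43.7%) and the autosomal arms 50.1% (45.9% to 54.3%). Among wider peaks X gave 26.3% (15 of 57, 16.6% to 39.0%) and the autosomal arms 48.7% (154 of 316, 43.3% to 54.2%). The share over all CBP peaks was not counted by arm, so it was not tested whether the lower share on X is particular to starts. Starts on the plus strand (45.2%) and the minus strand (47.3%) were close.

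**Figure D3:**
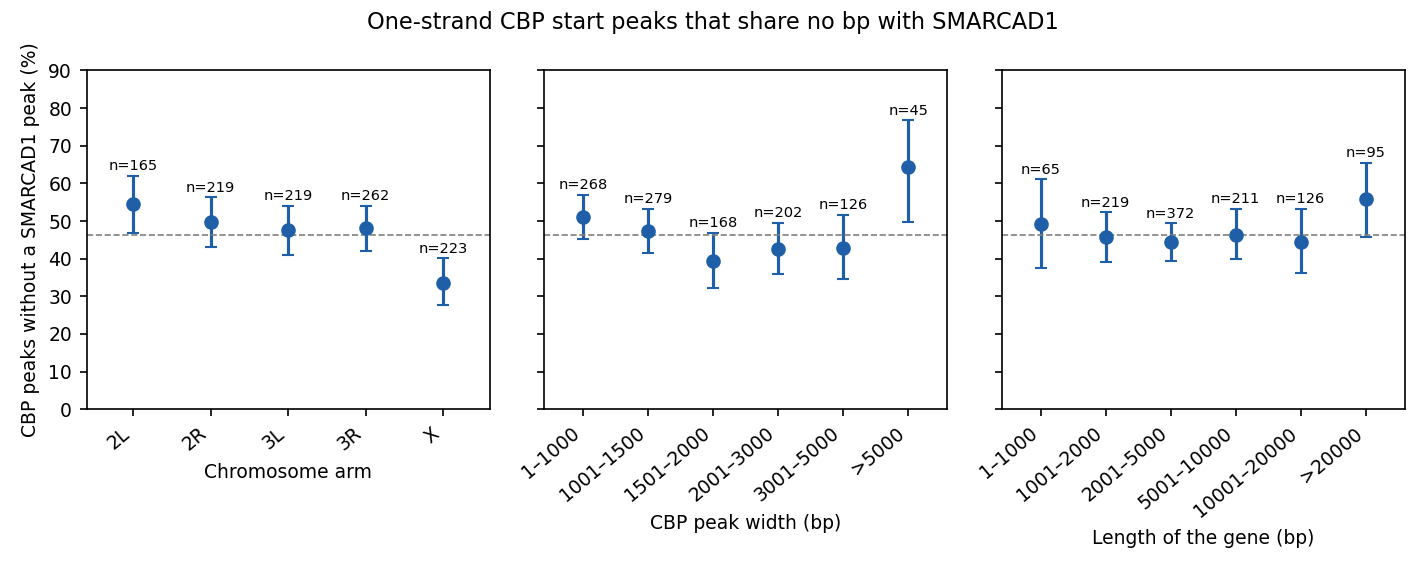
Percent of CBP peaks at starts on a single strand that share no bp with a SMARCAD1 peak, by chromosome arm, by width of the CBP peak and by length of the gene in bp; points are shares, bars are Wilson 95% intervals, n is the number of CBP peaks and the dashed line is the 46.3% over all 1088. X lies lowest at 33.6%, and the widest peaks and longest genes lie highest at 64.4% and 55.8% with wide intervals.

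The share also differed between classes of peak width, without a steady trend, and less with gene length. By width, the share without SMARCAD1 was 51.1% at up to 1000 bp (137 of 268) and 47.3% from 1001 to 1500 bp. It was lowest from 1501 to 2000 bp, at 39.3% (66 of 168, 32.2% to 46.8%). From 2001 to 3000 bp it was 42.6% (36.0% to 49.5%), and from 3001 to 5000 bp 42.9%. It was highest above 5000 bp, at 64.4% (29 of 45, 49.8% to 76.8%). This last interval does not overlap those from 1501 to 2000 and from 2001 to 3000 bp, and it overlaps those of the other width classes. By gene length, it was 55.8% for genes above 20000 bp (53 of 95, 45.8% to 65.4%) and 45.4% for all shorter genes (451 of 993, 42.3% to 48.5%), and these intervals overlap. The median length of the member genes was 3943 bp (3452 to 4484, range 345 to 117228), against 3554 bp (3233 to 3870) for the genes under shared start peaks.

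Of all 1103 genes with a CBP peak over a start on a single strand, 513 (46.5%) were under members and 590 under shared start peaks, with 0 in both. The gene groups below are read beside this 46.5%. Most groups had under 10 such genes, and the lists were chosen with earlier results of these data known, so the counts are descriptions.

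Among genes of protein turnover and synthesis, the proteasome subunits stood at one end. The proteasome is the protease that degrades ubiquitin-tagged proteins. All 6 of its genes with a CBP peak over a start on a single strand were members (100%, 61.0% to 100%, against the 46.5%), and 17 further listed subunit genes with CBP at the start were in the other classes of start, which the rule leaves out. The 6 peaks were of similar size, 1354 bp at Pros25 (now Prosalpha2), 1329 bp at Pros54 (now Rpn10), 1124 bp at Prosalpha5, 1104 bp at Rpn11, 943 bp at Rpt3 and 1213 bp at Rpt6R. In all 6 the centre lay upstream of the start, between -300 bp at Pros25 and -151 bp at Rpt6R. Over all members it lay upstream in 61.1%, and among those of 2000 bp or less in 68.4%. The 6 genes were 1006 to 1620 bp long, and under the rule gene length caps the downstream reach. Their nearest SMARCAD1 peaks were 14 bp away at Pros25, 500 bp at Rpn11, 3605 bp at both Rpt3 and Rpt6R, 3805 bp at Prosalpha5 and 18349 bp at Pros54. With the SMARCAD1 peaks widened by 500 bp the count was 5 of 6, as Pros25 was then met. Pros45 had a SMARCAD1 peak and no CBP peak over its start.

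Of the cytosolic ribosomal protein genes, 6 of 17 were members (35.3%, 17.3% to 58.7%), an interval that holds the 46.5%. RpL11, RpL22, RpL37a, RpL6 and RpS14b were each the single start under their peak, while RpS27A shared its peak with Ip259. The peak of RpL6 was 5287 bp wide with 4556 bp upstream, and those of the other 5 were from 539 to 1317 bp. No mitochondrial ribosomal protein gene was a member, 0 of 4. Translation factors gave 4 of 8, all 4 in initiation: Trip1 (an eIF3 subunit, peak 782 bp), eIF-3p66 (813 bp), eIF3-S8 (1154 bp) and the cap-binding protein gene eIF-4E (2952 bp). Prp8, the core protein of the spliceosome, was the 1 listed splicing factor gene in this class of start, with a peak of 1036 bp and a SMARCAD1 peak 442 bp away, so that it was no longer a member with SMARCAD1 peaks widened by 500 bp. The RNA polymerase II and Mediator genes gave 0 of 3.

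**Figure D4:**
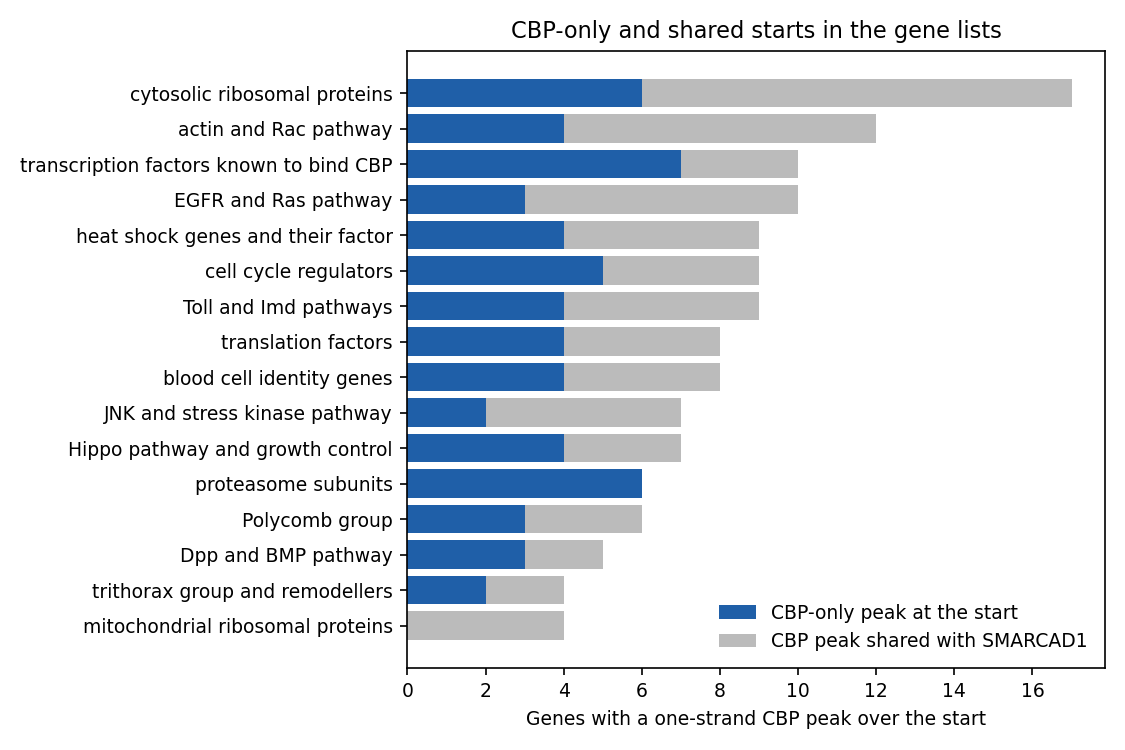
Number of genes in each list whose start lies under a CBP peak on a single strand, split into CBP-only start peaks (blue) and peaks shared with SMARCAD1 (grey), for lists with at least 4 such genes. Over all 1103 genes 46.5% were under CBP-only start peaks. All 6 proteasome genes and 7 of 10 transcription factors listed as binding CBP were, against 0 of 4 mitochondrial ribosomal protein genes.

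Transcription factors listed here as binding CBP or its mammalian counterpart were members in 7 of 10 cases (70%, 39.7% to 89.2%), an interval that also holds the 46.5%. The list takes them as genes for partners of the coactivator, which was not checked for each one. It is at their own starts that CBP was called. CrebA encodes a bZIP factor of secretory tissues, and its peak was 5772 bp wide, 4666 bp of it downstream. The NF-kappaB factor gene dl (dorsal) had a peak of 3428 bp. Jra and kay encode Jun and Fos, the subunits of AP-1: the peak at Jra was 1877 bp wide with a SMARCAD1 peak 424 bp away, and that at kay was 6015 bp wide, 5453 bp of it upstream, with the nearest SMARCAD1 peak at 22895 bp. Mad and Med encode the Smads of the Dpp pathway, with peaks of 960 and 9436 bp. The hypoxia factor gene sima had a peak of 1264 bp and a SMARCAD1 peak 574 bp away. CrebB-17A, Stat92E and arm, the beta-catenin gene, were under shared start peaks. With SMARCAD1 peaks widened by 500 bp the count was 6 of 10.

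Signalling genes were divided between members and shared start peaks. In the Dpp pathway 3 of 5 were members, namely Mad, Med and shn (schnurri, a zinc finger partner of Smads), and the body of shn, 43594 bp long, held 5 further SMARCAD1 peaks. In the Toll and Imd pathways of innate immunity 4 of 9 were members: the adaptor gene Myd88 (peak 1458 bp), PGRP-LF (1902 bp), a peptidoglycan recognition protein gene, ben (1232 bp), a ubiquitin-conjugating enzyme gene, and dl. EGFR and Ras signalling gave 3 of 10, with the neuregulin-like ligand vn (1560 bp), the phosphatase csw (2660 bp) and the receptor tyrosine kinase Pvr (2119 bp). Wingless signalling gave 1 of 2, the kinase gene CkIalpha (1908 bp). JNK signalling gave 2 of 7, Jra and kay, and 1 with SMARCAD1 peaks widened by 500 bp. When only centres within 200 bp of each other counted as shared, which raised the share over all genes to 69.3%, the EGFR and Ras count was 8 and the JNK count 5. Both ecdysone response genes in this class of start, Eip63E (2294 bp) and ImpL2 (5421 bp), were members.

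Genes of the Hippo pathway and growth control were members in 4 of 7 cases and cell cycle genes in 5 of 9 (55.6%, 26.7% to 81.1%). In the first group were the kinase gene Akt1 (peak 3262 bp), dm, the fly Myc gene (3365 bp), and the Hippo pathway genes ex (2879 bp) and CG33967, now kibra (4636 bp). In the second were the cyclin genes CycA (1899 bp) and CycB (1487 bp), E2f (2817 bp), mus209, which encodes PCNA (932 bp), and the mitotic kinase gene polo (2296 bp). The SMARCAD1 peak nearest to dm was 1140 bp away, and the gene held 3 further SMARCAD1 peaks, while E2f and polo had their nearest at 52012 and 44714 bp.

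S2 cells resemble embryonic blood cells, and 4 of 8 listed blood cell genes were members: Glt (glutactin, peak 2760 bp), Ppn (papilin, 2805 bp), Pvr and the engulfment receptor gene drpr (2045 bp). Glt and drpr had their nearest SMARCAD1 peaks at 33731 and 40502 bp. Actin and Rac genes gave 4 of 12, Rac2 (1555 bp), the capping protein gene cpb (5443 bp), the actin nucleator gene spir (8376 bp) and tsr, the cofilin gene (2702 bp). The gap was 207 bp at tsr and 104906 bp at spir. Polycomb group genes gave 3 of 6, Psc (4086 bp), Scm (1017 bp) and CG11033, now Kdm2 (1958 bp), and trithorax group and remodeller genes 2 of 4, the H3K27 demethylase gene Utx (4585 bp) and polybromo (1444 bp). Of the 3 genes that the study names for S2 cells and that were in this class, kermit was a member, with a peak of 923 bp and a SMARCAD1 peak 536 bp upstream, and Baldspot and cib were shared. Histone acetyltransferase and deacetylase genes gave 1 of 3, dik (now Ada3), with a peak of 879 bp. The dosage compensation list gave 1 of 3, CG1832 (now Clamp, a zinc finger protein gene), with a peak of 3224 bp. Insulator genes gave 0 of 1, and no tRNA synthetase, Notch pathway or Hox gene had a CBP peak in this class of start.

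Heat shock genes gave 4 of 9, and all 4 were copies of Hsp70, the inducible chaperone gene: Hsp70Aa (peak 2138 bp), Hsp70Ba (1548 bp), Hsp70Bbb (2277 bp) and Hsp70Bc (1402 bp). The copies are nearly identical, so reads cannot be assigned to 1 of them with certainty, and the copies Hsp70Ab and Hsp70Bb were under shared start peaks. Without the Hsp70 copies the count of members was 0. The Hsp70B cluster on 3R was among the densest places for members: between 8290514 and 8334927, 5 of 9 CBP peaks of any class were members, at CG5608, Hsp70Ba, alphagamma-element:CR32865, Hsp70Bbb and Hsp70Bc. On 3R between 8198202 and 8234390, 4 of 5 were, at CG5196 and at GstD3, GstD7 and GstD8, glutathione S-transferase genes of a tandem family whose members also resemble each other. These clusters were chosen after their values were seen.

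Other members were picked singly after their values were seen, some of them for related products. The other genes of such groups were not counted under members or shared start peaks, so these examples carry no share. Spase12 (peak 1048 bp), Spase22-23 (1990 bp) and Spase25 (619 bp), on 3R and X, encode subunits of the signal peptidase of the secretory pathway. Pvf2 (2369 bp), a ligand gene of the receptor Pvr, was a member like its receptor, and its nearest SMARCAD1 peak was 16200 bp away. The cytokine gene upd3, a ligand of the JAK/STAT pathway, had a peak of 829 bp with 786 bp upstream of the start and a gap of 88105 bp. TER94 (1788 bp), the fly VCP ATPase, and ref(2)P (2358 bp), the fly p62, both handle ubiquitinated proteins. Hsromega (4329 bp), a heat-inducible noncoding RNA gene, had its nearest SMARCAD1 peak at 19819 bp, and l(2)gl (6756 bp), a tumour suppressor gene, at 41389 bp.

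SMARCAD1 peaks were also counted beyond the start, on the rest of each gene. A further SMARCAD1 peak, one that does not touch the start peak, lay on 154 of 513 member genes (30.0%, 26.2% to 34.1%) and on 215 of 590 genes under shared start peaks (36.4%, 32.7% to 40.4%). These intervals overlap. For genes of at least 5000 bp it was 77 of 211 (36.5%, 30.3% to 43.2%) and 117 of 228 (51.3%, 44.9% to 57.7%), and without X 55 of 175 (31.4%, upper bound 38.6%) and 75 of 164 (45.7%, 38.3% to 53.4%). Among these longer genes the intervals were apart with X and overlapped slightly without it. Their median lengths were 10728 and 9882 bp, the member genes being the longer ones by median. At the gene end, which may also be the start of a neighbour, a SMARCAD1 peak lay on 101 member genes (19.7%, 16.5% to 23.3%) and 140 genes under shared start peaks (23.7%, 20.5% to 27.3%).

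**Figure D5:**
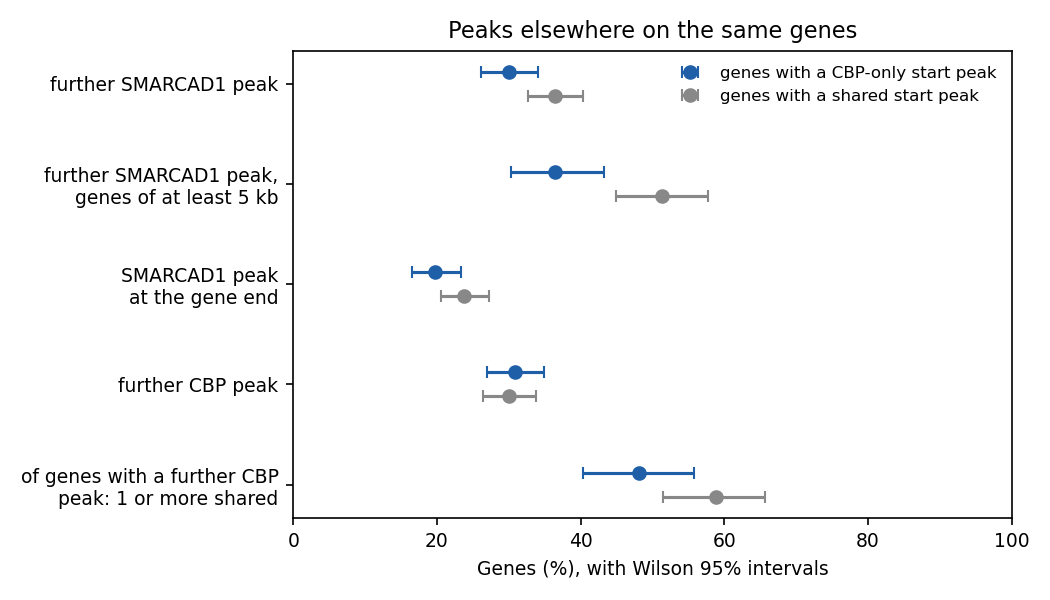
Percent of genes, on the x axis with Wilson 95% intervals, that hold a peak of the kind named at the left apart from the start peak, for genes under CBP-only start peaks (blue) and under shared start peaks (grey). Of the 5 pairs plotted, the intervals separate for further SMARCAD1 peaks on genes of at least 5000 bp, 36.5% against 51.3%, while further CBP peaks lie on 30.8% and 30%.

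CBP itself was found elsewhere on a similar share of genes in both groups. A further CBP peak lay on 158 of 513 member genes (30.8%, 27.0% to 34.9%) and on 177 of 590 genes under shared start peaks (30%, upper bound 33.8%). At least 1 of these further CBP peaks met a SMARCAD1 peak in 76 of the 158 (48.1%, 40.4% to 55.8%) and in 104 of the 177 (58.8%, 51.4% to 65.7%), leaving out SMARCAD1 peaks that also reach the start peak. With those counted, the second share was 130 of 177 (73.4%). For genes of at least 5000 bp, again leaving out SMARCAD1 peaks that reach the start peak, the shares were 46.5% (36.3% to 57.0%) and 67.7% (57.8% to 76.2%). These intervals do not overlap. Without X, at all gene lengths, they were 44.3% (36.1% to 52.8%) and 56.1% (47.3% to 64.6%), which overlap. The longer genes were not recounted without X. Per further CBP peak the shares were 43.4% (37.1% to 49.9%) and 54.7% (48.4% to 60.7%), which also overlap. The nearest other CBP peak was a median of 2955 bp away (2411 to 3655), against 2213 bp (1912 to 2520) for shared start peaks, with overlapping intervals.

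The genes with the most further CBP peaks showed each kind of pattern. On bun (bunched, a growth regulator of 90054 bp) there were 11 further CBP peaks, 8 of them met by SMARCAD1. On psq (pipsqueak, a BTB transcription factor gene of 58345 bp) there were 7, and SMARCAD1 met 0 of them. The body of psq held 1 SMARCAD1 peak elsewhere. CG32676 and CHES-1-like, a forkhead factor gene, had 6 each, with 2 and 3 met by SMARCAD1. The longest member gene, luna, a Krüppel-like factor gene of 117228 bp chosen after its values were seen, had 4 further CBP peaks and no SMARCAD1 peak at all on its body.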

How the data were processed

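ChIP-seq of S2 cells was analysed from deposited peak tables of 1 anti-SMARCAD1 and 1 anti-CBP library; depth is unknown. Per the methods, the authors aligned with BWA, ran MACS against a control and annotated genes with ChIPpeakAnno. The deposited values, of no normalized unit, are positions, widths and distances in bp. The methods name dm6, but gene coordinates follow an earlier release: 0 of 1188 matched genes on 2R and 452 of 1090 on 2L kept a Release 6 start or end. Coordinates are therefore those of the tables. Names came from the RefSeq Release 6 table, which matched 495 of 513 member genes (490 protein coding, 18 unmatched).

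Members were found in pandas 2.3.3 (Python 3.11.15), with overlap counted from 1 bp; intervals used scipy 1.17.1. Shares have Wilson 95% intervals and medians order-statistic intervals. The steps were tested on simulated peaks. Genes were assigned to lists by their name in the tables or their current symbol. The members and the 27 gene lists were chosen with earlier results of these data known. Named were up to 4 member genes per list, taken alphabetically and without CG numbers, the 5 widest and narrowest peaks, peaks over most starts, the 3 peaks on each side of the overlap threshold, genes the study names, and the 3 genes with most further CBP peaks, with ties; all others were chosen after their values were seen. A list prefix that also took Medea for a Mediator subunit was removed. Promoter sequences were not used here, so the planned motif counts were not run.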

Additional observations from a re-analysis of the deposited data

How the results depend on the processing

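Of 101 combinations of 35 values and an alternative, 79 stayed within the interval of the value or within 1.5 times a count. With SMARCAD1 peaks widened by 500 bp, the share of CBP peaks at starts on a single strand without SMARCAD1 was 40.7%, that on the autosomal arms 43.4% and that of genes of 20000 bp or less 39.7%, and of the 24 gene lists with such genes, splicing factors gave 0 and JNK 1 member. Widened by 1000 bp, the first share was 36.9%. When peaks counted as shared only with centres within 200 bp, it was 69.0%. Members were then 10 cytosolic ribosomal protein, 9 actin and Rac, 8 EGFR and Ras, 5 JNK, 5 Polycomb, 2 dosage compensation, 1 RNA polymerase II and Mediator and 1 insulator gene, and 2 of those the study names. With only the entry of the nearest start read per peak, 975 peaks were members, with a share of 46.2%. Among peaks of 2000 bp or less the centre lay upstream in 68.4%. Without X the share for genes of 20000 bp or less was 48.6%. SMARCAD1 elsewhere on the gene was 36.5% for genes of at least 5000 bp. X lay below the autosomal arms also with widened peaks, at 30.5%. Counting SMARCAD1 peaks that also reach the start, a further CBP peak was met on 73.4% of the genes under shared start peaks that had one. Without the Hsp70 copies, 0 heat shock genes were members. The alternatives for genes above and below 20000 bp, arms by peak width, centres in the lists, further CBP peaks and Hsp70 copies were chosen after seeing the data. The motif alternatives were not run. No paired analysis was possible because there was 1 library per antibody and no test was made. The tables hold no counts or scores, so peak strength and SMARCAD1 signal under the authors' threshold were not measured.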
